A study of Homo sapiens with 7 samples.

Results

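Mitochondria carry their own ribosome, whose proteins are all encoded in the nucleus, made in the cytosol and imported. The mitoribosome has a large subunit, which forms peptide bonds, and a small subunit, which reads the messenger RNA, and it translates the few proteins encoded by mitochondrial DNA, core subunits of the respiratory chain and ATP synthase. Its protein genes are expressed in nearly every cell and are known targets of transcription factors of mitochondrial biogenesis, among them the ETS factor GABP (NRF-2), NRF1, YY1 and MYC-family proteins.

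The genes described here are those named in the tables as MRPL or MRPS followed by a number and, for some MRPS genes, a letter: 76 of 28517 named entries, 47 MRPL and 29 MRPS. RNA was sequenced in 7 libraries of NGP, a human neuroblastoma line with amplified MYCN: ARID1A-/- line #1 (2 libraries), ARID1A-/- line #2 (2), an ARID1A+/- line (1) and control cells (2). ARID1A encodes a DNA-binding subunit of the BAF chromatin remodelling complex. All were kept in medium with puromycin, and the position of the mutations is not given in the sources used here. Each ARID1A-/- line and the control was sequenced once from a SMARTer Universal Low Input library and once from a KAPA mRNA HyperPrep library. ARID1A+/- cells had a KAPA library only. Because each genotype is represented by 1 or 2 lines, genotype cannot be told apart from other differences between lines. The labels leave unsaid whether a line's 2 libraries started from different cultures. The p-values here therefore reflect library-to-library spread that could be technical in origin.

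Library totals ran from 24445301 to 43644361 counts, and ARID1A mRNA, the check of the labels, was lower over both ARID1A-/- lines (log2 fold change -0.54 ± 0.09, SE; edgeR's quasi-likelihood test, Benjamini-Hochberg adjusted p = 0.012). Of the neuroblastoma markers, HAND2, GATA3, PHOX2A, ISL1 and MYCN had at least 2017 counts in every library, TH at most 38 and DBH 4 to 455. Summed fibroblast markers reached 198 and 222 RPKM in line #1, 48.2 and 43.2 in line #2, 85.8 in ARID1A+/- and 81.6 and 82.0 in the controls. COL1A1 made up most of the sum in line #1 (156 and 171 RPKM) and in the controls (60.2 and 62.6), while COL1A2 was at most 0.034. The markers did not move together: against the same-kit control, line #2 was lower in COL1A1, COL1A2 and PDGFRB and higher in DCN and LUM. COL3A1 and PDGFRA differed in direction between kits there. The part of these markers in the results below was not tested. Summed Schwann cell, immune, endothelial, epithelial and erythroid markers stayed at or under 4.97 RPKM in every library. In bulk RNA, fewer cells of a type and less RNA per cell cannot be told apart.

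The promoters of these genes held ETS/GABP and YY1 motifs in larger shares than promoters at large, given as a description with no test. RefSeq (GRCh38.p14) had windows of 250 bases before to 50 bases after the start for 67 of the 76 genes, 83 windows in all. The ETS/GABP letters CCGGAAG, searched on both strands, stood in 38.6% of these windows, in 16.5% of the windows of all entries that passed the filter on low values and in 10.3% of all 35116 windows. The YY1 letters AAGATGGCG stood in 15.7%, 3.41% and 1.75% of the same sets. For the NRF1 palindrome the shares were 10.8%, 9.89% and 5.78% with any base allowed at 1 central position, and 1.2%, 1.98% and 1.24% in its exact form. The E-box CACGTG stood in 10.8%, 9.34% and 7.26%. The exact NRF1 form is part of the open one, and a match describes letters, not binding. The windows of MRPS24 and MRPL51, the highest of the genes by mean RPKM, and of MRPL32, which rose in line #2, are shown with motif matches in capitals. MRPS24 (chr7:43869468-43869767, minus strand) and MRPL32 (chr7:42932126-42932425, plus strand) each hold a YY1 match, and MRPL51 (chr12:6493213-6493512, minus strand) holds 2 ETS/GABP matches on opposite strands.
MRPS24: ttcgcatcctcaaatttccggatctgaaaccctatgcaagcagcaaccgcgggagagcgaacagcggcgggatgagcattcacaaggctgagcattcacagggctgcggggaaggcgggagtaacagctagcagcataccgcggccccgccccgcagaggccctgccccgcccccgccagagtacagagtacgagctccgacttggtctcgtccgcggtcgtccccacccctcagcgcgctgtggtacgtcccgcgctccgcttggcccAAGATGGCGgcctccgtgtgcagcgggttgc
MRPL51: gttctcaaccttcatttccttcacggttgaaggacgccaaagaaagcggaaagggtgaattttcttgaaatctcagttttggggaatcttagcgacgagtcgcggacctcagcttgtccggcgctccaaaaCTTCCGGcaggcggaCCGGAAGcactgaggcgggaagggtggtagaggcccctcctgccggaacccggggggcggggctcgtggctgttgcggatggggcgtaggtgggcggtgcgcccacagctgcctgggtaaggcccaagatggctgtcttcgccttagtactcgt
MRPL32: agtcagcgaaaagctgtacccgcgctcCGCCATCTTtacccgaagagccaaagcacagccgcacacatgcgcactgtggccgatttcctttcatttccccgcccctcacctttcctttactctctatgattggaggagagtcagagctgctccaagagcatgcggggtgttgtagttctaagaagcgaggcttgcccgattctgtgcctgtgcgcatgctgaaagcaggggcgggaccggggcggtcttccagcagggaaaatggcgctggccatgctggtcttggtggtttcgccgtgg

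Nearly all of the genes were expressed in every library, at levels that were ordered much the same way throughout. With RPKM (counts scaled by the length of the entry and the library total) as the level, 75 of 76 genes passed the filter of a mean of at least 0.5 RPKM over the 6 ARID1A-/- and control libraries, and each of these had at least 240 counts in every library. Their median was 28.9 RPKM (quartiles 17.6 and 43.8), against 7.01 RPKM for all 14711 entries kept. The genes together took 0.361% to 0.370% of the counts in SMARTer libraries and 0.401% to 0.447% in KAPA libraries. Spearman correlations of the 75 levels between pairs of libraries lay between 0.935 and 0.982, a description over genes that share libraries.

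The RPKM of these genes, most of whose proteins sit in a single particle, spanned a 37.4-fold range. This range depends on entry length, by which RPKM divides: 518 to 939 bases for the 5 highest genes and 1359 to 7827 for the 5 lowest. In the SMARTer control library, MRPL46, the lowest, had 926 counts and MRPS24, the highest, had 3697. Whether the entry lengths match the transcripts expressed here was not tested. The 5 highest means over 6 libraries were MRPS24 at 144 ± 23.9 RPKM, MRPL51 at 136 ± 20.4, MRPS21 at 131 ± 14, MRPL33 at 122 ± 12.7 and MRPL24 at 115 ± 11 RPKM (SD over libraries of both kits and 3 lines). Neighbours in this order differed by less than those SDs. The 5 lowest were MRPL46 at 3.85 ± 0.242 RPKM, MRPL22 at 5.48 ± 0.558, MRPL19 at 7.18 ± 1.85, MRPL1 at 7.78 ± 1.64 and MRPL35 at 8.08 ± 1.64 RPKM. All 5 encode large-subunit proteins. By subunit the medians were 28.3 RPKM for 49 large-subunit genes, which include MRPS18A and MRPS30 because their proteins lie in the large subunit, and 30.2 RPKM for 25 small-subunit genes. MRPS36, whose protein is now known as a subunit of 2-oxoglutarate dehydrogenase rather than of the ribosome, averaged 11.5 ± 1.52 RPKM. Levels of MRPL42, MRPL45 and MRPS31 are uncertain because pseudogenes named after them are separate entries in the tables.

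**Figure D1:**
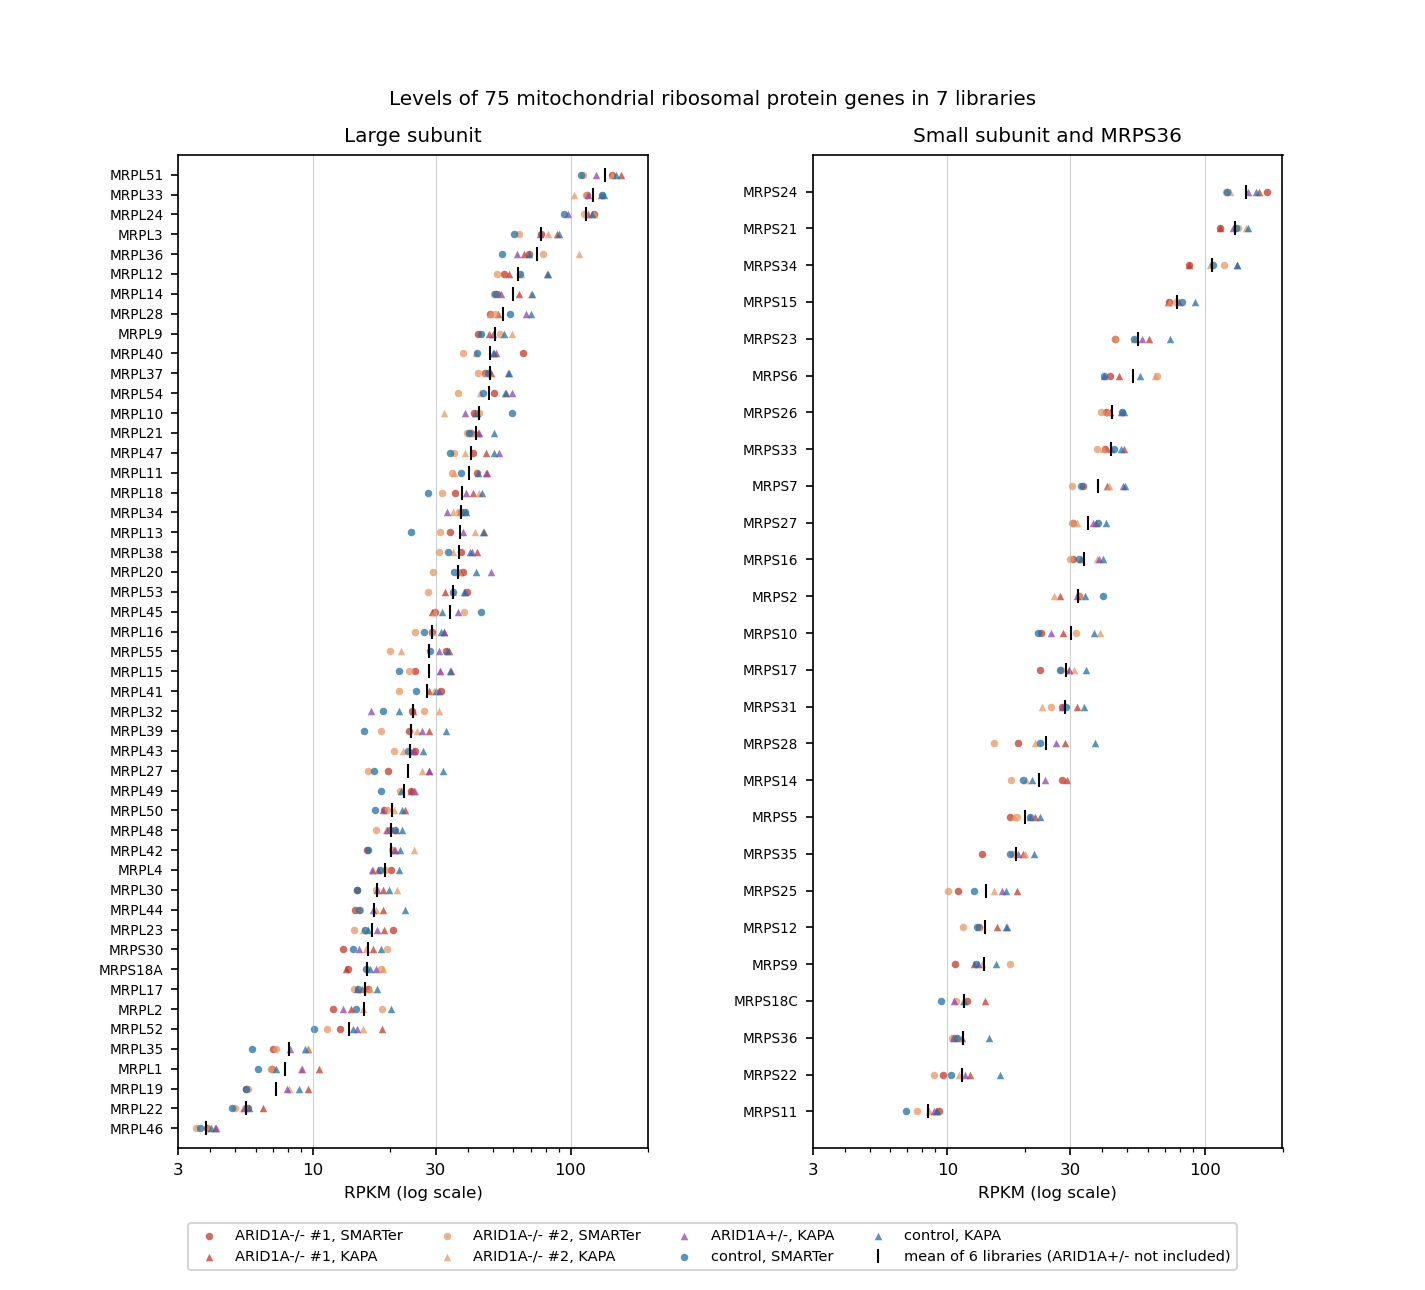
RPKM of 75 mitochondrial ribosomal protein genes on a log axis, one row per gene ordered by the mean of 6 libraries (black ticks), with large-subunit genes on the left and small-subunit genes and MRPS36 on the right. Colours stand for lines and symbols for kits; for most genes the spread over the 7 libraries is small beside the range from MRPL46 (3.85 RPKM) to MRPS24 (144 RPKM).

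MRPS18B was the exception: it is listed at 0 in all 7 libraries. It is 1 of 3 human homologues of bacterial S18, and the other two, MRPS18A and MRPS18C, averaged 16.2 ± 2.24 and 11.6 ± 1.51 RPKM. Around MRPS18B on chromosome 6, in RefSeq gene order, 10 of the 19 coding genes in the tables within 10 places on either side are also listed at 0 in every library, among them TUBB and FLOT1, which most cells use. ABCF1, which lies 2 places away, had 65 to 110 counts, and DDR1 had 281 to 1333. A zero here can therefore not be read as absence of the mRNA, and its cause was not tested.

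Few of these genes differed between ARID1A-/- and control cells. Over both ARID1A-/- lines against control, 1 of 75 passed an adjusted p of 0.05 (1.33%), a fall. Of all kept entries 14.2% passed, 4.64% higher and 9.57% lower. At an unadjusted p under 0.05 there were 10 members of 75, against 4387 of 14711 kept entries. The median log2 fold change was -0.09, with 26 genes above 0 and 49 below, beside a median of 0.02 for all kept entries. Large-subunit genes had a median of -0.03 (20 above 0, 29 below) and small-subunit genes a median of -0.16 (6 above, 19 below). The difference between subunits was not tested, and the large-subunit median was 0.03 without the KAPA control library and 0.01 without the KAPA library of line #1. The cytosolic ribosomal protein genes, read in the same fit, had a median of -0.52, and 54 of the 76 that passed the filter fell. That count varied with the setting while the median kept its sign: it was 74 with DESeq2, 17 with limma and 1 without a term for kit. Leaving out the SMARTer or KAPA library, it was 62 and 74 for line #1, 8 and 6 for line #2 and 1 and 6 for the control, with medians of -0.67 to -0.40. Many cytosolic ribosomal protein genes have processed pseudogenes, so their counts are uncertain, and their values also differed between kits.

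**Figure D2:**
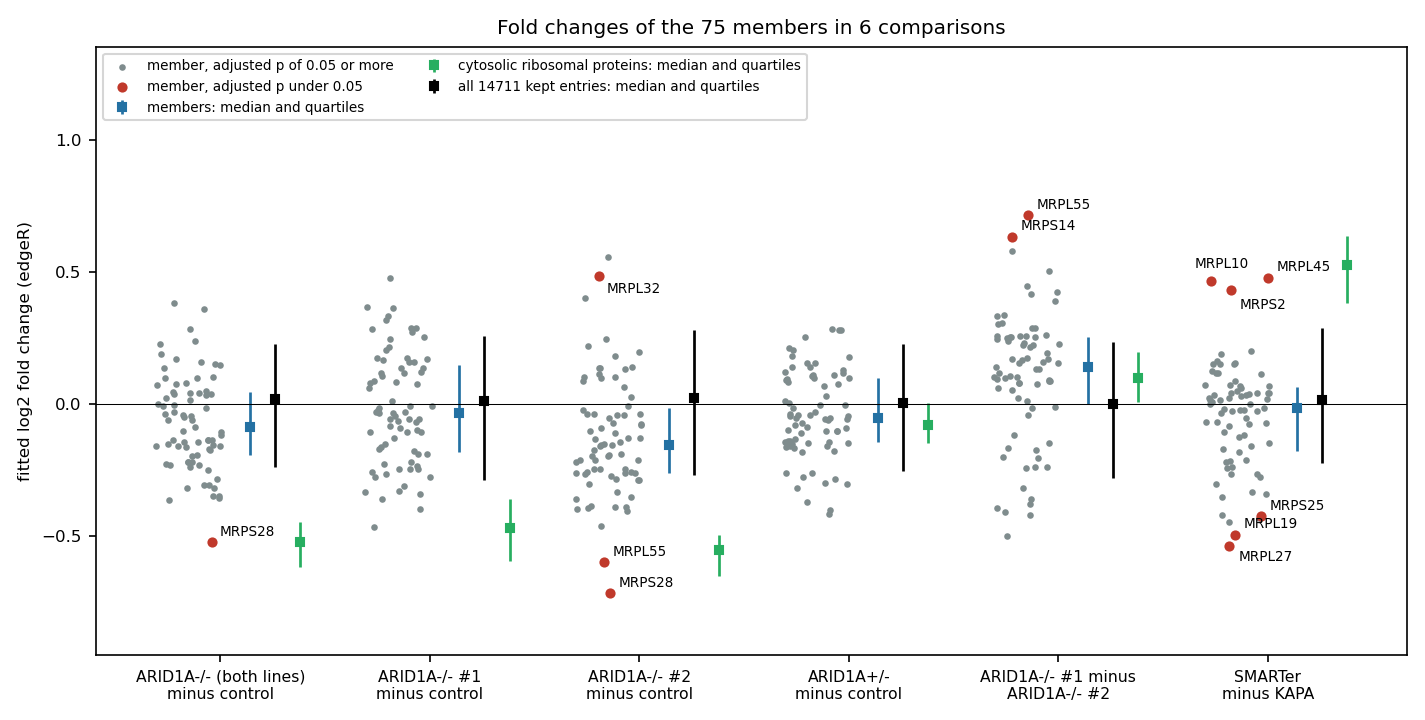
Fitted log2 fold changes of the 75 genes in 6 comparisons, one point per gene (called members in the plot), with those past an adjusted p of 0.05 in red and named. Squares with bars give the median and quartiles of the genes (blue), of all 14711 kept entries (black) and of cytosolic ribosomal protein genes (green), whose medians lie at -0.52 over both ARID1A-/- lines and at 0.53 between kits.

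MRPS28, which encodes a small-subunit protein, was the gene that fell. Its RPKM was 18.8 and 28.7 in line #1 (SMARTer and KAPA), 15.2 and 21.9 in line #2, 26.5 in ARID1A+/- and 22.9 and 37.4 in the control. The ARID1A-/- and control values overlap across kits, but within each kit both lines lay below the control. The fitted change over both lines was -0.52 ± 0.13 (SE; edgeR adjusted p = 0.044). The call was lost without either control library (adjusted p = 0.241 without the SMARTer and 0.332 without the KAPA library) and without either library of line #2 (0.093 without the SMARTer and 0.144 without the KAPA library).

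Within kits the values of all 75 can be set directly beside the control. After TMM scaling, the median log2 ratio to the same-kit control was 0.05 in the SMARTer and -0.11 in the KAPA library of line #1, and -0.12 and -0.17 in those of line #2. Line #1 therefore stood on opposite sides of 0 in the 2 kits. Within a kit both lines were set against the same control library, so the 4 ratios are not separate comparisons. Of the 75 genes, 5 were higher and 23 lower than control in all 4 of these ratios, against 21.2% higher and 20.2% lower for all kept entries. The 5 were MRPL1, MRPL32, MRPL35, MRPL49 and MRPL52, each a large-subunit gene, and were named after their values were seen. MRPL12, part of the ribosomal stalk and reported to bind mitochondrial RNA polymerase, was among the 23: it had 55.4 and 57.7 RPKM in line #1, 51.9 and 64.5 in line #2, 81.1 in ARID1A+/- and 63.5 and 82.0 in the control. Its fitted value over both lines was -0.35 ± 0.12 (SE; edgeR adjusted p = 0.098), which did not pass the threshold.

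Set against the control one at a time, line #1 gave no gene past the threshold and line #2 gave 3. In line #1 none of 75 passed in edgeR, against 13% of kept entries (4.75% higher and 8.27% lower), with 8 of 75 at an unadjusted p under 0.05, against 4307 of 14711 kept entries, and 1 past the threshold by DESeq2. The median was -0.03. In line #2, 1 gene rose and 2 fell (4.0%), against 14% of kept entries (5.47% higher and 8.52% lower), and the median was -0.16, with 57 of 75 genes below 0. MRPS28 had -0.72 ± 0.15 in line #2 (SE; edgeR adjusted p = 0.029) and -0.33 in line #1, which did not pass; the difference between the lines, 0.39, did not pass either (adjusted p = 0.160). The line #2 call was lost without the SMARTer or KAPA control library (adjusted p = 0.159 and 0.204) and without the SMARTer or KAPA library of line #2 (0.118 and 0.197).

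MRPL32 encodes a large-subunit protein whose maturation by the mitochondrial m-AAA protease is a step in ribosome assembly. It had 24.3 and 24.4 RPKM in line #1, 27.1 and 30.7 in line #2, 16.8 in ARID1A+/- and 18.8 and 21.6 in the control. All 4 ARID1A-/- values lay above both controls, and the ARID1A+/- value lay below them. It rose in line #2 by 0.48 ± 0.12 (SE; edgeR adjusted p = 0.048) and had 0.28 ± 0.12 in line #1 (adjusted p = 0.184). The line #2 call was lost with other scaling in edgeR (adjusted p = 0.051 with DESeq2 size factors and 0.055 with upper quartiles). It was also lost without the SMARTer or KAPA control library (0.290 and 0.180) and without the SMARTer or KAPA library of line #2 (0.160 and 0.337).

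MRPL55 and MRPS14 separated the 2 ARID1A-/- lines from each other. Between line #1 and line #2, 2 genes of 75 were higher in line #1 (2.67%) and none was lower, against 12.8% of kept entries (5.71% higher and 7.1% lower), and the median was 0.14. MRPL55, a large-subunit gene, had 32.7 and 33.7 RPKM in line #1, 19.9 and 21.9 in line #2, 30.8 in ARID1A+/- and 28.5 and 33.3 in the control. Line #2 thus lay below every other library, and the difference between the lines was 0.71 ± 0.14 (SE; edgeR adjusted p = 0.024). Against control, MRPL55 had -0.60 ± 0.14 in line #2 (SE; edgeR adjusted p = 0.041) and 0.12 in line #1. MRPS14, a small-subunit gene, had 27.8 and 29.1 RPKM in line #1, 17.7 and 20.1 in line #2, 23.9 in ARID1A+/- and 19.7 and 21.3 in the control. Here line #1 lay above every other library, and the lines differed by 0.63 ± 0.12 (SE; edgeR adjusted p = 0.022). MRPS14 had 0.48 in line #1 against control (edgeR adjusted p = 0.052) and -0.16 in line #2, neither past the threshold. Both differences between the lines were lost without either control library (adjusted p = 0.062 and 0.055 for MRPL55, 0.053 and 0.050 for MRPS14, without the SMARTer and KAPA library). They were also lost without either library of line #2 (0.146 and 0.113, 0.167 and 0.086) and without the SMARTer library of line #1 (0.066 and 0.056). The fall of MRPL55 in line #2 was lost without either control library (0.185 and 0.248) and without either library of line #2 (0.194 and 0.187). The promoter windows of MRPL55 and MRPS14 held none of the motifs searched.

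**Figure D3:**
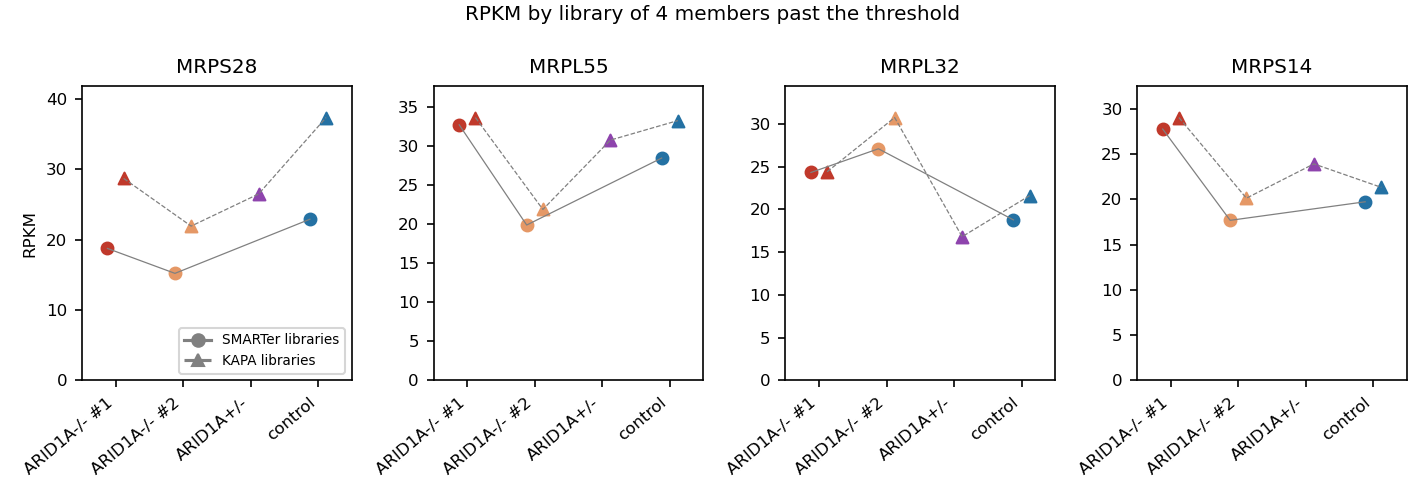
RPKM of MRPS28, MRPL55, MRPL32 and MRPS14 in each library, with the ARID1A-/- lines left of ARID1A+/- and control, circles for SMARTer and triangles for KAPA libraries, and lines joining libraries of a kit. MRPL55 is lowest in line #2 (19.9 and 21.9 RPKM) and MRPS14 highest in line #1 (27.8 and 29.1 RPKM) in both kits.

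Both genes lie on chromosome 1 among genes that differed between the lines in the same direction. The 20 kept genes on each side, in RefSeq order, had a median line #1 minus line #2 log2 fold change of 0.63 around MRPL55 and 0.45 around MRPS14, and 36 and 34 of the 40 neighbours were above 0. MRPL55 and MRPS14 were the 2 members with neighbour medians above 0.3, and 7 members had neighbour medians below -0.3. MRPS10, MRPS18A, MRPL2 and MRPL14, all on chromosome 6, had neighbour medians of -0.57, -0.57, -0.53 and -0.62. Their own values were -0.42, -0.41, -0.36 and -0.02, none past the threshold. MRPS21 and MRPL9 on chromosome 1 had neighbour medians of -0.38 and -0.36 with own values of -0.24 for each, and MRPL44 on chromosome 2 had -0.31 with an own value of 0.05. In all, 6 of these 7 were below 0. Those on chromosome 6 lie close together and share neighbours, so the 7 are not separate observations. Of the 66 members with neighbour medians within 0.3 of 0, 53 were above 0 and 13 below. Over 75 members the Spearman correlation between own and neighbours' values was 0.34 (0.28 without MRPS14 and MRPL55, and 0.34 with 10 neighbours on each side), a description of genes measured in the same libraries. With 20 neighbours it was also 0.29 in line #1 and 0.34 in line #2 against control, 0.32 in ARID1A+/- against control and 0.23 between kits. These members and the neighbour ranges were chosen after the values were seen. DNA copy number was not measured here, and its part in these differences was not tested.

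**Figure D4:**
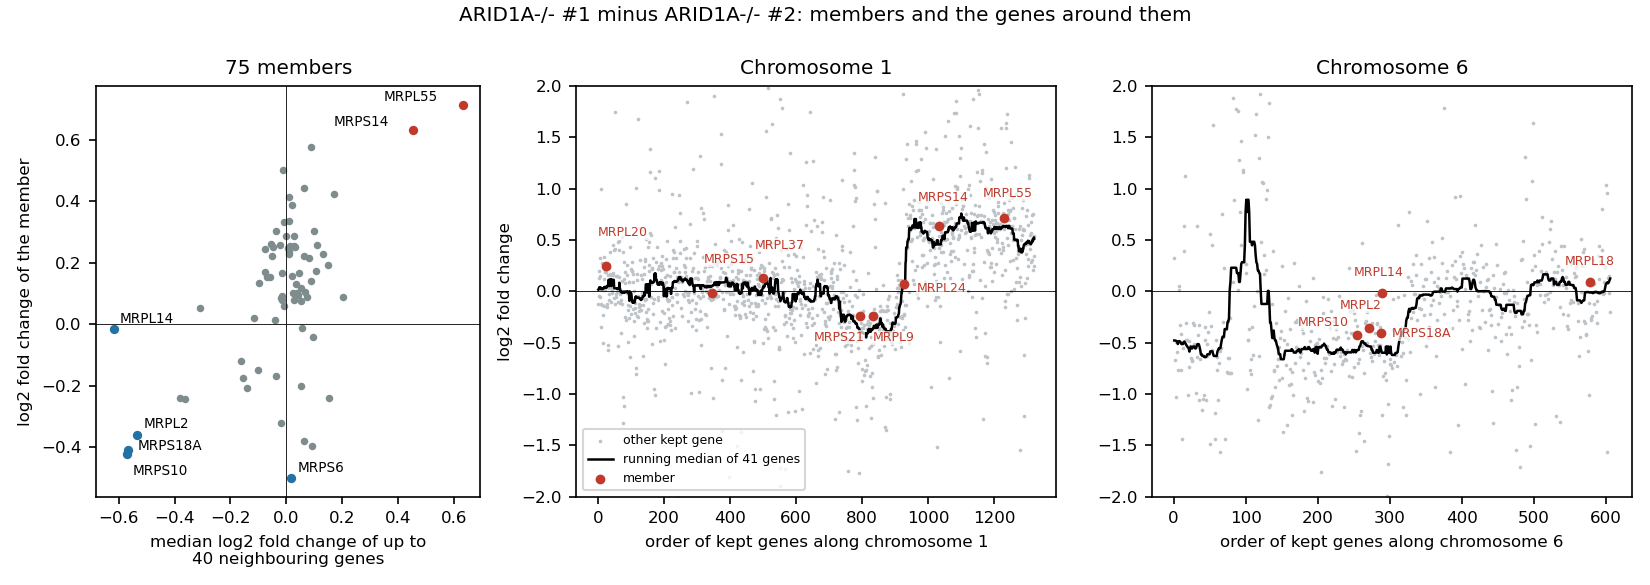
Log2 fold change of line #1 minus line #2. Left, each of the 75 members against the median of up to 40 genes around it; middle and right, kept genes in their order along chromosomes 1 and 6 (grey), their running median (black) and the members (red). MRPS14 and MRPL55 lie on a stretch of chromosome 1 with a raised running median, and MRPS10, MRPL2, MRPS18A and MRPL14 on a stretch of chromosome 6 with a lowered one.

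The ARID1A+/- line showed no gene past the threshold. In a fit that takes its single library to vary like the other groups, 0 of 75 passed in edgeR, against 3.3% of kept entries (1.15% higher and 2.15% lower). None had an unadjusted p under 0.05 and none passed in DESeq2. The median was -0.05. The values farthest below the control were MRPL2 at -0.42 ± 0.23, MRPS28 at -0.40 ± 0.20, MRPS10 at -0.37 ± 0.19, MRPL14 at -0.32 ± 0.17 and MRPS36 at -0.30 ± 0.22 (SE). Those farthest above were MRPL1 at 0.28 ± 0.24, MRPL49 at 0.28 ± 0.17, MRPL20 at 0.28 ± 0.19, MRPL47 at 0.25 ± 0.19 and MRPS14 at 0.21 ± 0.16. Against the KAPA control alone, MRPS28 had 26.5 RPKM in ARID1A+/- and 37.4 RPKM in the control, and MRPL1 had 9.04 RPKM in ARID1A+/- and 7.22 RPKM in the control.

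Between the library kits, 6 of the genes differed. Kit cannot be told apart here from any other difference between the SMARTer and KAPA sets of libraries. Across the control and both ARID1A-/- lines, 3 genes were higher in SMARTer and 3 lower (8.0%), against 13.3% of kept entries (7.99% higher and 5.3% lower), and the median was -0.02. Higher in SMARTer were MRPL45 (0.48 ± 0.12, SE; edgeR adjusted p = 0.044), which anchors the ribosome at the inner membrane, MRPL10 (0.47 ± 0.11, 0.044), which forms the base of the stalk, and MRPS2 (0.43 ± 0.09, 0.032), a small-subunit gene. MRPL45 had 29.7, 38.5 and 45.1 RPKM in the SMARTer libraries of line #1, line #2 and control, against 29.1, 29.4 and 31.8 RPKM in their KAPA libraries. Lower in SMARTer were MRPL27 (-0.54 ± 0.11, SE; edgeR adjusted p = 0.033), MRPL19 (-0.49 ± 0.10, 0.029) and MRPS25 (-0.42 ± 0.11, 0.046). MRPL27 had 19.6, 16.3 and 17.2 RPKM in SMARTer libraries, against 28.3, 26.6 and 32.1 RPKM in KAPA libraries, with no overlap. MRPL19 had 5.52, 5.60 and 5.53 RPKM in SMARTer libraries, against 9.54, 8.07 and 8.84 RPKM in KAPA libraries, again with no overlap. On the TMM scale each of the 6 differed in the same direction in all 3 lines. The fit that called them used the same differences, so this is not separate support. MRPS28, MRPL13, MRPL4 and MRPL34, the other genes among the 5 farthest each way, did not pass (-0.45, -0.43, 0.20 and 0.19). All 6 calls were lost without either library of the control or of line #2 (adjusted p = 0.082 to 0.216), and that of MRPS25 also without either library of line #1 (0.069 and 0.075). With limma on unscaled RPKM, MRPL45, MRPL10 and MRPS2 had 0.25 to 0.31 and did not pass, and MRPL10 also did not pass with upper quartile scaling (adjusted p = 0.051). Cytosolic ribosomal protein genes had a median of 0.53 between kits and 50 of 76 were higher in SMARTer, against 60 with DESeq2 and 12 with limma. The count was 64 without either library of line #1, 1 without either of line #2 and 0 without either control library, while the median ran from 0.36 to 0.60 over all these settings.

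The other genes of mitochondrial translation also gave few calls. Of 74 measured genes for assembly, translation factors, tRNA synthetases, mitochondrial DNA expression and mitoribosomal proteins under other symbols, none rose and 4 fell over both ARID1A-/- lines (5.41%), with a median of -0.05, against 14.2% of kept entries called, 9.57% lower, and a median of 0.02. NOA1, a GTPase of small-subunit assembly, had 19.1 and 17.5 RPKM in line #1, 23.9 and 17.1 in line #2, 21.4 in ARID1A+/- and 36.5 and 27.3 in the control. All 4 ARID1A-/- values lay below both controls, and the fitted change was -0.73 ± 0.11 (SE; edgeR adjusted p = 0.0074). NOA1 and OXA1L were also higher in SMARTer than in KAPA libraries (0.51 each, edgeR adjusted p = 0.031 and 0.036), but not past the threshold with limma or without either library of the control or of line #2. TUFM, the mitochondrial elongation factor Tu, fell by 0.47 (edgeR adjusted p = 0.033), OXA1L, which inserts new proteins into the inner membrane, by 0.51 (0.033) and C10orf2, the Twinkle helicase of mitochondrial DNA, by 0.50 (0.046). None of these 4 passed without the SMARTer control library (adjusted p = 0.139 to 0.325), without the KAPA control library (0.066 to 0.335) or without a term for kit (0.152 to 0.346). TUFM, OXA1L and C10orf2 also did not pass with limma (0.052 to 0.084). TUFM and OXA1L lost their calls without the SMARTer or KAPA library of line #2 (0.065 and 0.159 for TUFM, 0.063 and 0.10 for OXA1L). C10orf2 lost its call without the SMARTer library of line #1 (0.058), without the KAPA library of line #2 (0.136) and with DESeq2 size factors in edgeR (0.052). In line #1 against control, 2 of the 74 fell and none rose (2.7%), against 13% of kept entries. In line #2 against control, 1 rose and 3 fell (5.41%), against 14% of kept entries. AARS2 rose there by 0.95, and NOA1, OXA1L and IARS2 had -0.68, -0.63 and -0.53. Each of these line #2 calls was lost in some alternative runs. The small-subunit protein gene DAP3 fell by 0.56 in line #1 (edgeR adjusted p = 0.026) and had -0.17 in line #2. Its call was lost without the SMARTer or KAPA control library (0.140 and 0.165) without the SMARTer library of line #1 (0.091) and without a term for kit (0.158). RBFA, another assembly factor, had 2.66 and 3.21 RPKM in line #1, 2.70 and 2.87 in line #2, 6.40 in ARID1A+/- and 2.65 and 3.12 in the control. The ARID1A+/- value stood above all others, a fitted change of 1.11 ± 0.18 (SE; edgeR adjusted p = 0.029) that did not pass without the SMARTer or KAPA control library (0.138 and 0.244), with limma (0.074 and 0.085) or without a term for kit (0.10).

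Genes of this group that differed between line #1 and line #2 included some on chromosomes 1 and 6. Of the 74, 3 were higher and 1 lower in line #1 (5.41%), against 12.8% of kept entries. IARS2 and TFB2M, for the isoleucyl tRNA synthetase and a transcription factor of mitochondrial DNA, were higher in line #1 by 0.61 and 0.49 (edgeR adjusted p = 0.023 and 0.043). Both lie on chromosome 1, with neighbour medians of 0.58 and 0.47. AARS2, the alanyl tRNA synthetase on chromosome 6, was lower in line #1 (-1.1, edgeR adjusted p = 0.019), with a neighbour median of -0.53. The call of AARS2 was lost without the KAPA library of line #2 (0.105). IARS2 did not pass without the SMARTer control library (0.057), the KAPA library of line #1 (0.053) or either library of line #2 (0.073 and 0.205), and TFB2M lost its call whichever library was left out (0.055 to 0.260) and with limma (0.063). Without a term for kit none of IARS2, TFB2M and AARS2 passed (edgeR adjusted p = 0.107 to 0.263).

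Among 11 transcription regulators of such genes, 2 of the 10 that passed the filter fell in the mean of both ARID1A-/- lines and none rose. Of kept entries 9.57% were lower and 14.2% were called in all. Set against control one at a time, 2 of the 10 fell in line #1, against 13% of kept entries called. None of the 10 passed in line #2, against 14% of kept entries. MYC had 0.35 and 0.22 RPKM in line #1, 0.66 and 0.25 in line #2, 0.34 in ARID1A+/- and 1.29 and 0.55 in the control, a fitted change of -1.34 ± 0.25 (SE; edgeR adjusted p = 0.018). The coactivator PPARGC1B had -1.22 ± 0.27 (SE; edgeR adjusted p = 0.031). Neither passed without the SMARTer or KAPA control library (0.239 and 0.099 for MYC, 0.159 and 0.281 for PPARGC1B), and MYC, with 22 to 177 counts a library, also not without the KAPA library of line #2 (0.053). Neither passed without a term for kit (0.289 and 0.081) or with limma, where MYC had -0.47 and PPARGC1B -0.64 at a pseudocount of 1 (0.086 and 0.067) and -1.10 and -1.13 at 0.1 (0.078 and 0.081). MYCN, the amplified family member, had 1435 and 1063 RPKM in line #1, 2343 and 606 in line #2, 783 in ARID1A+/- and 3663 and 1226 in the control. Its fitted value of -0.78 ± 0.27 (SE; edgeR adjusted p = 0.109) did not pass, and it was higher in SMARTer than in KAPA libraries by 1.5 ± 0.27 (edgeR adjusted p = 0.026), a call lost with DESeq2 (0.205) and without either library of the control or of line #2 (0.105 to 0.139). GABPA, NRF1 and YY1 had 0.02, 0.11 and 0.03 over both lines, with adjusted p of at least 0.605 in edgeR.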

How the data were processed

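The authors deposited 1 table per library, 7 in all, listing counts (whole numbers) and RPKM for 28517 named entries. Deposited RPKM could be recomputed from count, length and library total to within 0.000501%. HISAT2 2.1.0 and the hg19 build are named in the submitters' processing notes. No counting program, annotation or strand setting is given in the sources used here, so overlapping genes, antisense partners such as MRPL23-AS1, and genes with pseudogenes are uncertain. Per the labels' protocols, ribosomal RNA was depleted, while the same labels name polyA RNA.

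Entries averaging at least 0.5 RPKM over the 6 ARID1A-/- and control libraries were kept (14711). Deposited counts were fitted with edgeR 4.0.16 in R 4.3.3 (quasi-likelihood test, TMM with full library totals, terms for group and kit, 2 residual degrees of freedom). Benjamini-Hochberg adjustment ran over all kept entries, and 0.05 was the threshold. Standard errors are fold changes divided by the square root of F. The ARID1A+/- fit used all 7 libraries. Alternatives were other scalings, DESeq2 1.42.0, limma 3.58.1, no filter, no kit term and leaving out each library. The fit was tested on simulated counts with planted changes larger than that of any member and with no effect of kit. That test does not cover changes of the members' size.

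Members, lists and the rule for named genes were chosen with earlier results of these data known. The rule names the 5 highest and 5 lowest levels, those past the threshold, the 5 farthest each way between kits and in ARID1A+/-, the MRPS18 genes, MRPS36, MRPL12, MRPL58 (in the tables as ICT1, and without a call) and up to 4 genes of each other list. Some genes of the other lists are not reported here. A split of the genes by symbol number was left out because the numbers do not follow bacterial homology.

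Kits pair the libraries across lines: the labels name the kit, and SMARTer minus KAPA differences over all kept entries correlated at 0.46 between line #1 and control, 0.57 between line #2 and control and 0.38 between line #1 and line #2. Every member that passed had at least 240 counts in each library, and precision rests on 2 libraries a line. RefSeq (GRCh38.p14) gave promoters, gene order and chromosomes, and none of its coordinates were applied to the hg19 tables.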

Additional observations from a re-analysis of the deposited data

Results flagged for a closer look

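MRPL55 and MRPS14 differed between the 2 ARID1A-/- lines when the difference itself was tested: line #1 minus line #2 was 0.71 for MRPL55 and 0.63 for MRPS14 on the log2 scale (edgeR adjusted p = 0.024 and 0.022). Both values come with neighbour medians of 0.63 and 0.45.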

How the results depend on the processing

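No fold change past the threshold changed sign under any alternative run, while counts of members past it varied. Of the 75 members, 1 passed over both ARID1A-/- lines, against 2 with upper quartile scaling, 3 with DESeq2, 2 with no filter, 0 without the replicate block for the kit, and 0 to 6 leaving out 1 library (6 without the KAPA library of line #1). In line #1 none passed, against 1 each with DESeq2, limma on log2(RPKM + 1), limma on log2(RPKM + 0.1) and no filter, and 0 to 3 leaving out 1 library. In line #2, 3 passed, against 6 with DESeq2, 0 without the replicate block and 0 to 9 leaving out 1 library. Between the lines 2 passed, against 4 with DESeq2, 0 without the replicate block and 0 to 4 leaving out 1 library. Between kits 6 passed, against 14 with either limma fit and 0 to 8 leaving out 1 library. In ARID1A+/- none passed under any alternative run. Leaving out 1 library, the member median ran from -0.18 to -0.009 over both ARID1A-/- lines, -0.12 to 0.04 in line #1, -0.23 to -0.085 in line #2, 0.044 to 0.19 between lines, -0.08 to 0.04 between kits and -0.10 to 0.061 in ARID1A+/-. With limma the median was -0.12 in line #2 (pseudocount 1) and -0.18 and -0.19 between kits, where unscaled RPKM put the median of all entries at -0.12 and -0.15. The 6 calls of members against control and between lines were also lost with no block for the kit, with adjusted p of 0.098 to 0.337. A fit without 1 library assumes that the line's remaining library varies like the others. The cause of these changes was not tested, and depth was not varied.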
